A study of Mus musculus with 4 samples.

Results

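The 10 genes described here encode the ligands, receptors and signal carriers through which interleukin 1 (IL-1) and the cytokines of the interleukin 6 (IL-6) family act on cells. They are Il1b, Il1rn, Il1r1, Il1rap, Il1r2, Il6ra, Il6st, Osmr, Stat3 and Socs3. They were taken by symbol from the annotation of the array's probe sets, 10 of 30838 named genes. Each had 1 probe set of its own, and all 10 were among the 18503 genes kept after a filter on dim signal. The genes were chosen by their differences between the genotypes and times on these same arrays, with earlier results known, so their differences are a description and carry no test. The data were 4 single-channel arrays of whole mouse liver lysate, 1 for each combination of genotype and time. Each array held RNA pooled from 3 male mice. The wildtype mice carried floxed YAP alleles, and the YAP-KO mice were knockouts of YAP, a coactivator of transcription in the Hippo pathway. The 0 h mice of both genotypes were fasted and received no acetaminophen, and the 24 h mice of both genotypes were fasted, injected into the peritoneum with 300 mg/kg acetaminophen (APAP) and sampled 24 h later. The age of the mice, the strain, the promoter that drove Cre and the cells that lost YAP are unknown here, as the labels do not name them.

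IL-1 signals by binding its receptor IL1R1, which then recruits the accessory protein encoded by Il1rap and activates NF-kB. The pathway has its own brakes: Il1rn encodes a secreted antagonist that occupies the receptor, and Il1r2 encodes a decoy receptor without a signalling domain. IL-6 binds the receptor encoded by Il6ra and oncostatin M binds that encoded by Osmr; both complexes signal through the shared subunit gp130, encoded by Il6st, to the transcription factor STAT3, which induces its own inhibitor SOCS3. In hepatocytes these routes together drive the acute phase response, the release of plasma proteins during injury and infection.

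Values are log2 signals, in which a difference of 1 is 2-fold, and with 1 array per group no value has a replicate error. A pool also hides the spread between its mice. At 0 h Yap1 read 7.54 in wildtype against 6.31 in YAP-KO, and at 24 h 8.24 against 6.01, so the knocked-out gene was lower in both YAP-KO pools, and transcript remained on its probe set. Of 6 hepatocyte markers, with means of 18.26 to 18.65, Alb, Apoa1 and Ttr were saturated (at the highest reading of the array) on all 4 arrays and cannot show a difference. Hnf4a, Cps1 and Cyp3a11 were saturated on none. Hnf4a read 12.29 against 13.09 at 0 h (wildtype against YAP-KO), then 11.39 against 11.64, lower at 24 h in both genotypes (-0.90 and -1.45). The same 24 h differences were -0.76 and 0.04 for Cps1 and -0.34 and -0.07 for Cyp3a11. At 0 h YAP-KO minus wildtype was 0.80 for Hnf4a, -0.03 for Cps1 and -0.19 for Cyp3a11. Cps1 read close to the maximum at 0 h in wildtype (19.84 against 19.86) and in YAP-KO (19.81 against 19.83). It did so at 24 h in YAP-KO as well (19.85 against 19.88). Its differences between those arrays (-0.03 and 0.04) therefore cannot show that it was unchanged. Untreated mice were not sampled at 24 h, so overdose, elapsed time and handling cannot be told apart. Among kept genes the array medians were 6.44 at 0 h in both genotypes, 6.69 in wildtype at 24 h and 6.58 in YAP-KO at 24 h, and the 24 h differences below contain that offset.

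**Figure D1:**
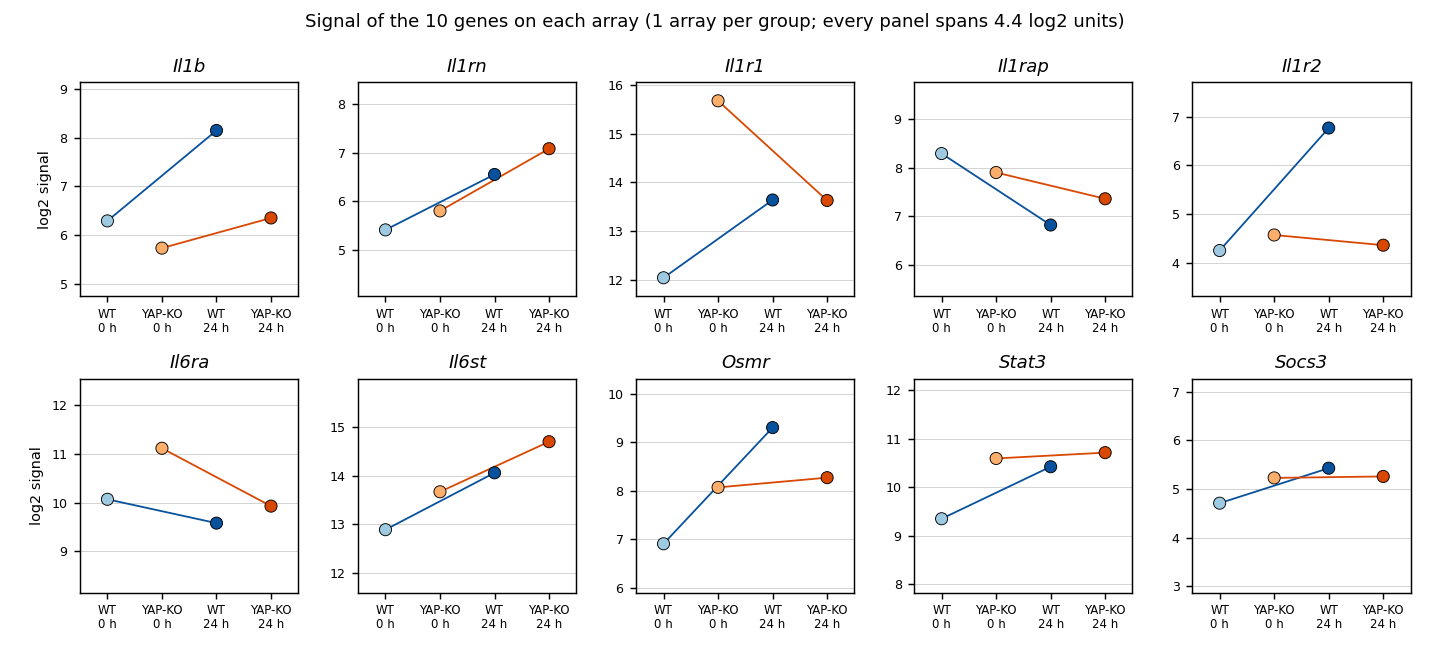
Log2 signal (vertical axis) of each of the 10 genes on the 4 arrays (horizontal axis), 1 point per array; lines join the 0 h and 24 h arrays of a genotype (blue, wildtype; orange, YAP-KO), and all panels span the same number of log2 units. Il1r1 was highest in YAP-KO at 0 h (15.68), Il1b, Il1r2 and Osmr were highest in wildtype at 24 h, and Il1rn and Il6st were highest in YAP-KO at 24 h.

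Of the ligand genes, Il1b, which encodes the secreted cytokine IL-1 beta, was highest in wildtype liver after the overdose. Its signal was 6.29 in wildtype at 0 h, 5.73 in YAP-KO at 0 h, 8.15 in wildtype at 24 h and 6.35 in YAP-KO at 24 h. The 24 h wildtype array stood apart, and the YAP-KO array at 24 h read 0.06 above the wildtype array before the overdose. The difference between the times was 1.86 in wildtype (3.63-fold) and 0.62 in YAP-KO, and at 24 h YAP-KO was lower than wildtype by 3.48-fold (-1.80). In whole liver, fewer cells of a type and less RNA per cell cannot be told apart, here and below. Il1rn, the receptor antagonist, had another pattern. It read 5.41 (wildtype) against 5.80 (YAP-KO) at 0 h, then 6.55 against 7.08 at 24 h. Both genotypes were higher at 24 h, by 1.14 in wildtype and 1.28 in YAP-KO, so the antagonist's response was close in size in both genotypes while that of the agonist Il1b was 1.24 smaller in YAP-KO.

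Il1r1, the signalling receptor of IL-1, differed between the genotypes before the overdose more than any other of the 10 genes. Its signal was 12.04 in wildtype at 0 h, 15.68 in YAP-KO at 0 h, 13.64 in wildtype at 24 h and 13.63 in YAP-KO at 24 h. The YAP-KO array at 0 h was the highest, the wildtype array at 0 h the lowest, and the arrays at 24 h read alike. At 0 h the difference was 3.64 (12.5-fold), and 8 of the 18503 kept genes, Il1r1 included, differed by at least that much in either direction. From there Il1r1 was 1.60 higher at 24 h in wildtype and 2.05 lower in YAP-KO (-2.05), which puts the difference of responses at -3.65; 66 genes had one as large. The 24 h difference thus had opposite directions in the genotypes, whose 24 h arrays were 0.01 apart.

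The accessory receptor gene Il1rap had a much smaller difference between the genotypes. It read 8.29 (wildtype) against 7.90 (YAP-KO) at 0 h, then 6.82 against 7.36 at 24 h. It was lower at 24 h in both genotypes, by 2.77-fold in wildtype (-1.47) and by 1.45-fold in YAP-KO (-0.54). The decoy receptor gene Il1r2 was dim on 3 of the 4 arrays. It read 4.25 (wildtype) against 4.57 (YAP-KO) at 0 h, 6.77 in wildtype at 24 h and 4.36 in YAP-KO at 24 h. Those 3 readings lie near the medians of all probe sets (4.32 to 4.47), no detection call was used, and their order has no known meaning. At 24 h the wildtype array was 2.52 above wildtype at 0 h, and YAP-KO minus wildtype was -2.41; as the lower readings were not shown to be above background, neither these nor other differences of Il1r2 have an exact size.

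Some markers of infiltrating cells differed between the same arrays. Il1b is made mainly by myeloid cells, and Il1r2 is expressed by neutrophils. The 9 neutrophil markers had a mean signal of 5.16 (wildtype) against 5.27 (YAP-KO) at 0 h and of 7.03 against 5.92 at 24 h. Among the 8 that passed the filter, 5 were at least 2-fold lower in YAP-KO at 24 h and 0 were higher (5.73% and 3.23% of all kept genes), among them Retnlg (-2.68), S100a8 (-2.47), Mmp8 (-2.02) and S100a9 (-1.63), whereas Ly6g was 0.53 and Camp 0.18 higher. The 9 monocyte and macrophage markers had means of 6.64 against 6.49 at 0 h and 9.15 against 8.59 at 24 h. In YAP-KO at 24 h 2 of 9, Cd14 (-3.73) and Csf1r (-1.27), were 2-fold lower and 0 higher, against the same 5.73% and 3.23%. Itgam (-0.98) and Adgre1 (-0.37) were lower by less, while Ly6c2 (0.97) and Ccr2 (0.46) were higher. Cd68 (-0.02), Chil3 (-0.04) and Lyz2 (-0.01) read alike in the genotypes, and the list median was -0.04. Kupffer cell markers (6 genes) had means of 9.36, 9.40, 10.15 and 9.76, endothelial markers (6 genes) 9.45, 9.51, 10.97 and 10.17, stellate and fibroblast markers (6 genes) 6.45, 6.60, 6.45 and 6.78, and biliary markers (3 genes) 5.37, 5.43, 6.20 and 5.86, in the order wildtype 0 h, YAP-KO 0 h, wildtype 24 h, YAP-KO 24 h. The members of a list did not move together at 24 h. Of the endothelial markers, 3 were lower in YAP-KO, Lyve1 (-3.88) and Cdh5 (-1.49) the most, and 3 higher, Kdr (0.51) the most. Their median was -0.07. Of the Kupffer cell markers, 5 were lower, Vsig4 (-1.70) and Marco (-1.67) the most, and 1 higher, C6 (2.11). All 4 T cell markers and 1 of the 2 measured B cell markers were below the filter. The part of these cells in the differences of Il1b and Il1r2 was not tested. At 0 h the means of these lists differed by at most 0.15 between the genotypes. Single markers differed by more, as Lyve1 (0.74), S100a8 (0.59), Pdgfrb (0.56) and Ly6c2 (-0.52) did. Whether cell content had a part in the 0 h difference of Il1r1 (3.64) was not tested.

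**Figure D2:**
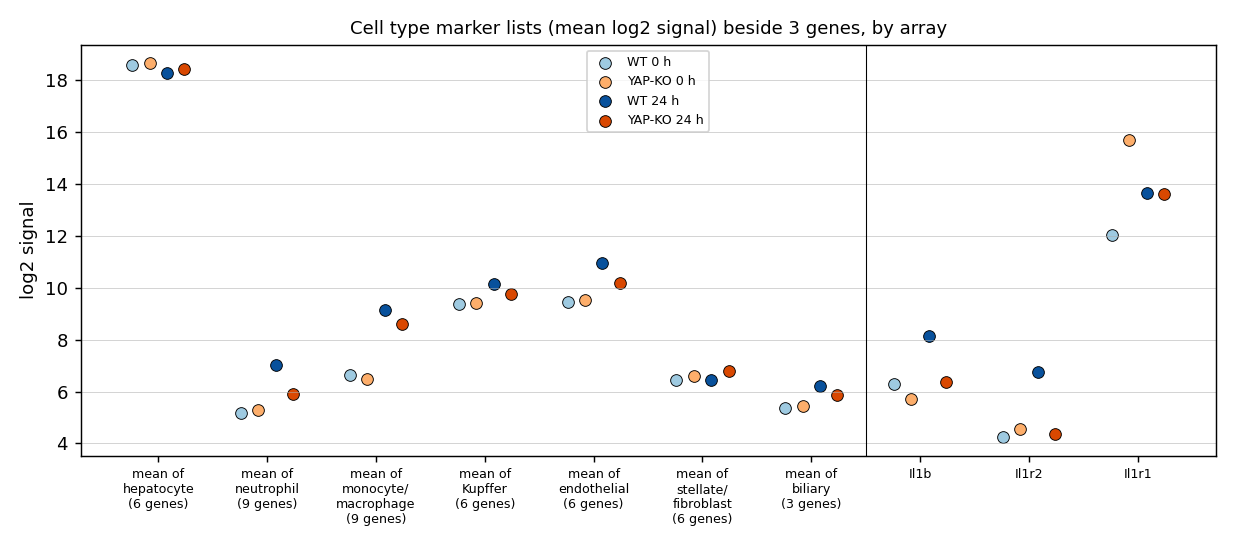
Mean log2 signal of 7 lists of cell type markers (left of the line) and the log2 signal of Il1b, Il1r2 and Il1r1 (right of the line), 1 point per array; levels are to be compared within a column, not between columns, since probe sets differ. The mean of the neutrophil markers, Il1b and Il1r2 were all highest in wildtype at 24 h. At 0 h Il1r1 was 15.68 in YAP-KO and 12.04 in wildtype. List means hide differences of single markers, and the hepatocyte mean holds Alb, Apoa1 and Ttr, saturated on all 4 arrays.

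Among the receptors of the IL-6 family, Osmr, the oncostatin M receptor, was the gene whose 24 h response was most unlike between the genotypes. Its signal was 6.91 in wildtype at 0 h, 8.07 in YAP-KO at 0 h, 9.30 in wildtype at 24 h and 8.27 in YAP-KO at 24 h. It was thus 2.39 higher at 24 h in wildtype and 0.20 in YAP-KO, 1.16 higher in YAP-KO before the overdose and 2.04-fold lower in YAP-KO (-1.03) after it. Il6ra, the ligand-binding chain for IL-6, was highest in YAP-KO at 0 h. It read 10.07 (wildtype) against 11.12 (YAP-KO) at 0 h, then 9.58 against 9.93 at 24 h. It was lower at 24 h in both genotypes, by 1.40-fold in wildtype (-0.49) and 2.28-fold in YAP-KO (-1.19). Il6st, the shared gp130 subunit, read 12.89 (wildtype) against 13.67 (YAP-KO) at 0 h, then 14.06 against 14.70 at 24 h. Both YAP-KO arrays were above the wildtype array of the same time, by 0.78 and 0.64, and both genotypes were higher at 24 h, by 1.17 and 1.03. The receptors of the family therefore did not share a direction: between 0 h and 24 h Il6st was higher and Il6ra lower in both genotypes.

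Stat3, the transcription factor downstream of gp130, was lowest in wildtype before the overdose. It read 9.35 (wildtype) against 10.59 (YAP-KO) at 0 h, then 10.42 against 10.71 at 24 h. The other 3 arrays lay within 0.29 of each other, and the wildtype array at 0 h was 1.07 below the nearest of them. YAP-KO exceeded wildtype by 1.24 at 0 h and by 0.29 at 24 h. Socs3, the feedback inhibitor that STAT3 induces, differed less. It read 4.71 (wildtype) against 5.23 (YAP-KO) at 0 h, then 5.43 against 5.26 at 24 h. These readings are close to the filter level of 4.322, and its largest difference, between the times in wildtype, was 0.72.

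Before acetaminophen, then, 4 of the 10 genes were 2-fold or more higher in YAP-KO, Il1r1, Stat3, Osmr and Il6ra, and 0 were lower, where 1.02% of all kept genes were that much higher and 1.89% differed that much in either direction. Il6st (0.78) and Socs3 (0.52) were higher by less, and Il1b (-0.56) and Il1rap (-0.39) were the genes below wildtype. The median over the 10 was 0.65 against -0.03 over all kept genes. Since the genes were picked with this contrast known, nothing is read from that share. Il6ra, at 1.05, lay just inside the 2-fold limit, and Il6st, at 1.72-fold, lay outside it. The 4 genes and Socs3 are shown with the sequence at their start sites, from RefSeq (GRCm38.p6), because of the 10 genes the 4 differed most between the genotypes before the overdose and Socs3 is the known feedback target of STAT3. Each window runs from 250 bases before an annotated transcription start to 50 bases after it. Capitals mark every match, on either strand, to the motifs of STAT (TTCNNNGAA), of the YAP partner TEAD (GGAATG), AP-1 (TGANTCA), C/EBP (TTGCNNAA) and NF-kB (its consensus of 10 letters):
Il1r1, first start, chr1:40224830-40225129, plus strand: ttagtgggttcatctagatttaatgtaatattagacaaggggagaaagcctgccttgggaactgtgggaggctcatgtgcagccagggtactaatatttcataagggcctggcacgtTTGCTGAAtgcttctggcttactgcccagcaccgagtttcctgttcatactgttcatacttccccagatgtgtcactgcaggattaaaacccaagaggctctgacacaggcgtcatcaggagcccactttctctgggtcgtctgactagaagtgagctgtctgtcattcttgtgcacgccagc
Il1r1, second start, chr1:40266336-40266635, plus strand: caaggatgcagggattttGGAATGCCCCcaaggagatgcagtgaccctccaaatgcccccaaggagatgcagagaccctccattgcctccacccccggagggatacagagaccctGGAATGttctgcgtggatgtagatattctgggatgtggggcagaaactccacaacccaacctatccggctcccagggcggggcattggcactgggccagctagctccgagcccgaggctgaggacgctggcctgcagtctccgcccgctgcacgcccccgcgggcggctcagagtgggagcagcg
Stat3, chr11:100939491-100939790, minus strand: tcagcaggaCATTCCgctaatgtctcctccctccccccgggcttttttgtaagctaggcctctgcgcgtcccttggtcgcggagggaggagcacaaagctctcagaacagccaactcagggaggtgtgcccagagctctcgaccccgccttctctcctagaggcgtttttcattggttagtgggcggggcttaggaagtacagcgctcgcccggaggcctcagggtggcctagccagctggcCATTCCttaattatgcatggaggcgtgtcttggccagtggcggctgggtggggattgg
Osmr, chr15:6874264-6874563, minus strand: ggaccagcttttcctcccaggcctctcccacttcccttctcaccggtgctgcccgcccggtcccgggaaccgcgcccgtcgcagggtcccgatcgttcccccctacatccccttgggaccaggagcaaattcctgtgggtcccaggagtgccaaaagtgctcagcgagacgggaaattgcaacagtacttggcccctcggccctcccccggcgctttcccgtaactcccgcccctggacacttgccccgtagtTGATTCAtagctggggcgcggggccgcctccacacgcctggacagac
Il6ra, chr3:89913147-89913446, minus strand: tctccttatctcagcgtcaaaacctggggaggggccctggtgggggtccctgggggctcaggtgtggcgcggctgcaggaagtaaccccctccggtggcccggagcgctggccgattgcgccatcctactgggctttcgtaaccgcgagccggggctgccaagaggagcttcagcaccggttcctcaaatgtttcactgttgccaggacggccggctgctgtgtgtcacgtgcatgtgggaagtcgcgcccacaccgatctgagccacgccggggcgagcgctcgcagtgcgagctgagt
Socs3, chr11:117969317-117969616, minus strand: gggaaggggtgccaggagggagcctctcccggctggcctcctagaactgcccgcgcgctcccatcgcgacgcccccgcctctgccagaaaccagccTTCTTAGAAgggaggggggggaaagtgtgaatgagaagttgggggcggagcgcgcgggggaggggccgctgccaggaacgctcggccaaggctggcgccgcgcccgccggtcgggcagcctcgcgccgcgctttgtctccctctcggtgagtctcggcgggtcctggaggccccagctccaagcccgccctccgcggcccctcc

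No motif was found in all of the printed windows, and TEAD was matched in those of both Il1r1 (second start) and Stat3. The second Il1r1 window held 2 TEAD matches, starting 232 and 135 bases before the start site, the first of which overlaps an NF-kB match. The first Il1r1 window held a C/EBP match 133 bases before its start. Stat3 held 2 TEAD matches, at 241 and 8 bases before the start. Osmr held an AP-1 match just after its start, Socs3 a STAT match 154 bases before its start, and Il6ra none of the 5 motifs. Of 32851 promoter windows of this length, 14.7% held a TEAD match, 10.8% C/EBP, 8.46% NF-kB, 8.30% STAT and 7.81% AP-1. All 10 genes were found, with 13 windows, of which 3 held TEAD, 2 STAT, 2 AP-1, 1 C/EBP and 1 NF-kB. The matches not printed were a STAT match in the window of Il1r2, and an AP-1 and a TEAD match in separate windows of Il1rn. Which start is used in these livers was not measured, and a match is a run of letters, not a bound site.

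After acetaminophen, 8 of the 10 genes were 2-fold or more different from 0 h in wildtype, against 18.5% of all kept genes. Higher were Il1r2, Osmr, Il1b, Il1r1, Il6st, Il1rn and Stat3, and Il1rap was lower. The 7 higher genes compare with 12.7% of all kept genes and the 1 lower gene with 5.87%. In YAP-KO 4 of the 10 differed, against 6.95%: Il1rn and Il6st were higher (4.73% of kept genes), Il1r1 and Il6ra lower (2.22%). Il6st, at 1.03, left the limit under centring (0.89) and quantile normalization (0.80), which leaves 3. The median over the 10 was 1.15 in wildtype and 0.08 in YAP-KO, where all kept genes had medians of 0.07 and 0.07. With each array centred on its median, which takes 0.25 off every wildtype difference, 5 genes remained in wildtype (Il1b, Il1r1, Il1rap, Il1r2 and Osmr). Centring also evened the background, from 2341 higher and 1087 lower genes in wildtype to 1596 and 1656, and from 876 and 410 in YAP-KO to 596 and 574. In YAP-KO the differences of Osmr, Stat3 and Socs3, at 0.20, 0.12 and 0.03, turned to 0 or below under centring or quantile normalization and have no settled direction.

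At 24 h, 3 of the 10 genes were at least 2-fold lower in YAP-KO, Il1r2, Il1b and Osmr, and 0 were higher, against 8.96% of all kept genes in either direction and 5.73% lower. Osmr (-1.03) lay just inside the limit and left it under centring and under quantile normalization. Il6st (0.64), Il1rap (0.54) and Il1rn (0.53) were the highest on the other side. For the difference of responses, 4 of the 10 were 2-fold or more lower in YAP-KO, Il1r1 (-3.65), Il1r2 (-2.73), Osmr (-2.19) and Il1b (-1.24), where 13.1% of all kept genes passed that limit in either direction and 7.49% in that direction, and 0 were higher (5.66%). Stat3 (-0.95) and, on the other side, Il1rap (0.93) lay just outside it; Il1rap passed it under centring (1.04) and quantile normalization (1.02), which makes 1 higher. For Il1r1 and Stat3 the gap between responses came with a gap at 0 h: both ended within 0.29 of each other at 24 h. For Il1b and Il1r2 the 0 h arrays were closer together (-0.56 and 0.32, YAP-KO minus wildtype) than the 24 h arrays (-1.80 and -2.41). At a looser limit of 1.5-fold in either direction, 9 of the 10 genes differed between the times in wildtype (35.2% of kept genes), 5 between the times in YAP-KO (19.5%), 5 between the genotypes at 0 h (8.32%), 4 at 24 h (21.7%) and 8 in the difference of responses (30.2%). These comparisons share arrays and are not independent of each other.

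**Figure D3:**
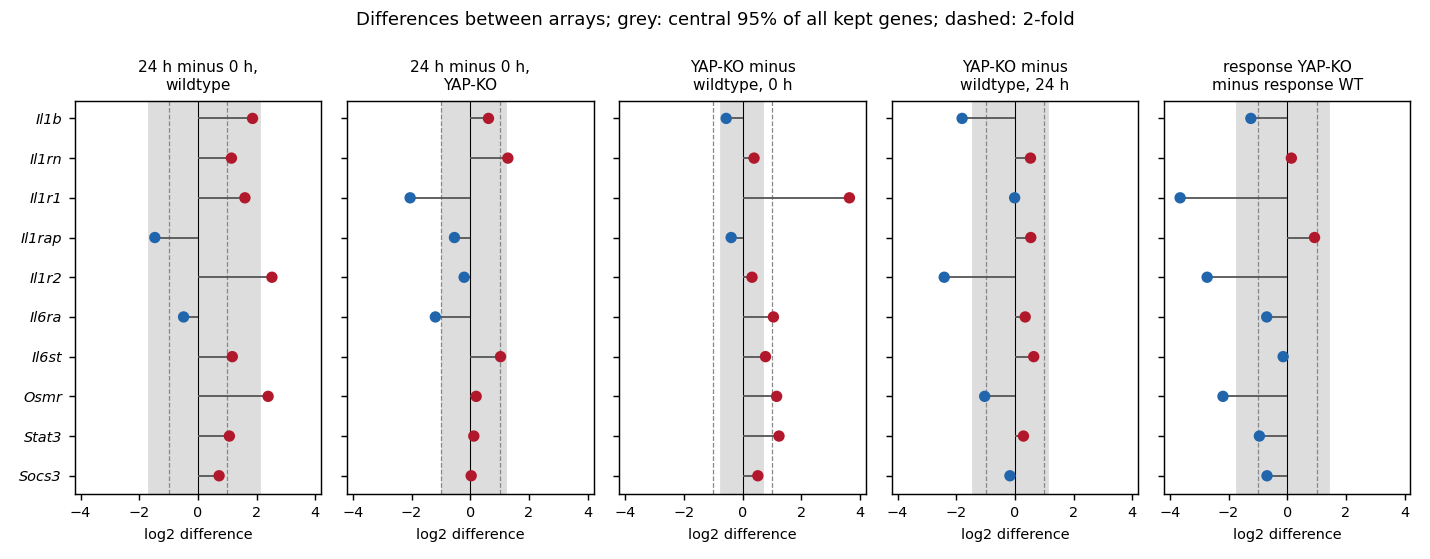
Log2 differences of the 10 genes (rows) in 5 comparisons of arrays (panels); points right of 0 (red) are higher and left of 0 (blue) lower in the group named first, grey bands hold the central 95% of all 18503 kept genes and dashed lines mark 2-fold. Before the overdose Il1r1 (3.64), Stat3 (1.24), Osmr (1.16), Il6ra (1.05) and Il6st (0.78) lay right of a band that ended at 0.68.

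The rest of the IL-1 route, a list of 35 genes of ligands, receptors, adaptors, kinases and NF-kB components, lay closer to all kept genes. Of these, 27 were kept; 5 others lacked a probe set of their own and 3 were below the filter. In wildtype 8 of 27 were 2-fold or more higher at 24 h and 0 lower (12.7% and 5.87% of all kept genes), with a median of 0.47. The ones with the largest differences were Tnfaip3, which encodes the NF-kB inhibitor A20 (1.57), the inhibitory kinase gene Irak3 (1.45), Nfkbiz, encoding an inducible NF-kB cofactor (1.34), and the NF-kB subunit gene Rela (1.20). After centring, and likewise after quantile normalization, 3 of 27 were 2-fold or more higher. In YAP-KO 0 of 27 were 2-fold different in either direction (6.95% of all kept genes) and the median was 0.14, or 0.00 after centring. The adaptor gene Myd88 read 7.40 against 8.04 (wildtype against YAP-KO) at 0 h, then 8.56 against 8.49. Before the overdose 0 of 27 differed 2-fold between the genotypes, and the largest difference was that of Rela (0.85). As only 1.89% of all kept genes differed that much, nothing is read from this count. At 24 h, 2 of 27 were lower in YAP-KO, Nfkbia (-1.12), the gene of the inhibitor that holds NF-kB in the cytoplasm, and Tnfaip3 (-1.09), both targets of NF-kB, against 5.73% of all kept genes. Under centring 1 of 27 and under quantile normalization 0 of 27 were 2-fold lower. The other IL-1 agonist gene, Il1a, did not share the pattern of Il1b: it read 7.60 against 7.35 at 0 h, then 8.07 against 8.26.

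Of 27 further genes of the gp130 route, 18 were kept; 3 others lacked a probe set of their own and 6 were below the filter. The cytokine genes Il6, Osm, Il11, Il27 and Lif were all among those below the filter. Il6 read 3.92 against 3.97 at 0 h (wildtype against YAP-KO), then 3.62 against 3.84, and Osm 4.14 against 3.80, then 3.78 against 3.82. With no detection call, nothing can be said of their presence in these livers. The list had a median of 0.20 in wildtype at 24 h (6 of 18 higher, 2 lower, against 12.7% and 5.87% of all kept genes), which turned to -0.05 under centring (0.04 under quantile normalization). Under both scalings 3 of 18 were higher. Lifr, the receptor of leukaemia inhibitory factor, was lower in both genotypes, from 14.22 to 11.67 in wildtype and from 14.24 to 12.81 in YAP-KO. Ptpn2, a phosphatase gene that acts against JAK and STAT signalling, was 1.62 higher in wildtype, followed by the cytokine gene Clcf1 (1.31) and the kinase gene Jak1 (1.27). In YAP-KO 0 of 18 were higher and 2 lower (4.73% and 2.22% of all kept genes), Socs2 (-1.49) and Lifr (-1.43). Before the overdose 3 of 18 were 2-fold higher in YAP-KO and 0 lower (1.02% and 0.876% of all kept genes). They were 2 genes of the same inhibitor family as Socs3, Cish (1.56) and Socs2 (1.06), and the phosphatase gene Ptpn1 (1.42); Ptpn2 followed at 0.95. At 24 h 1 of 18 was 2-fold higher in YAP-KO, Lifr (1.14), and 1 lower, Clcf1 (-1.24), against 3.23% and 5.73% of all kept genes. For the difference of responses, 6 of 18 were 2-fold or more lower in YAP-KO and 1 higher (7.49% and 5.66% of all kept genes). The median there was -0.18. Under centring 4 of 18 and under quantile normalization 5 of 18 were lower, with 1 higher under each.

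A list of acute phase and cytokine-induced liver genes held larger differences than either list of pathway genes. Of 34 listed acute phase and cytokine-induced genes 33 were kept, and 12 of 33 were 2-fold or more higher in YAP-KO before the overdose, with 0 lower (1.02% and 0.876% of all kept genes). The list median there was 0.32, or 0.66 over the 27 genes with no saturated reading. The list was drawn up with earlier results of these arrays known, and its count is no independent evidence of direction. The metallothionein gene Mt1 was 4.69 higher, the chemokine gene Cxcl1 4.50 and the serum amyloid gene Saa2 4.31, while Mt2, saturated in YAP-KO, was higher by at least 6.25. At 24 h, where Il1r1 and Stat3 lay within 0.29 between the genotypes, Saa2 was 8.20, Saa1 7.36, Saa4 3.60 and Orm2 3.50 higher in YAP-KO. For Saa4 it was wildtype that changed, from 18.47 at 0 h to 14.92 at 24 h, while YAP-KO read 18.67 and 18.52. Of the list at 24 h, 12 of 33 genes were 2-fold higher in YAP-KO and 2 lower (3.23% and 5.73%). The lower genes were Il4ra (-2.11), the interleukin 4 receptor, and Cxcl1 (-1.03); Cxcl1 stayed 2-fold lower neither under centring nor under quantile normalization. Between the times, 12 of 33 were higher and 2 lower in wildtype (12.7% and 5.87% of all kept genes), and 10 higher and 2 lower in YAP-KO (4.73% and 2.22%). In YAP-KO the lower ones were Bcl3 (-1.24), a cofactor of NF-kB, and the metalloreductase gene Steap4 (-1.20), which had been 1.84 and 3.31 higher in YAP-KO at 0 h. Il1r1 and Il6ra had the same order of arrays as these in YAP-KO, higher at 0 h and lower at 24 h. The median in wildtype, 0.18, turned to -0.07 under centring (0.19 under quantile normalization).

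**Figure D4:**
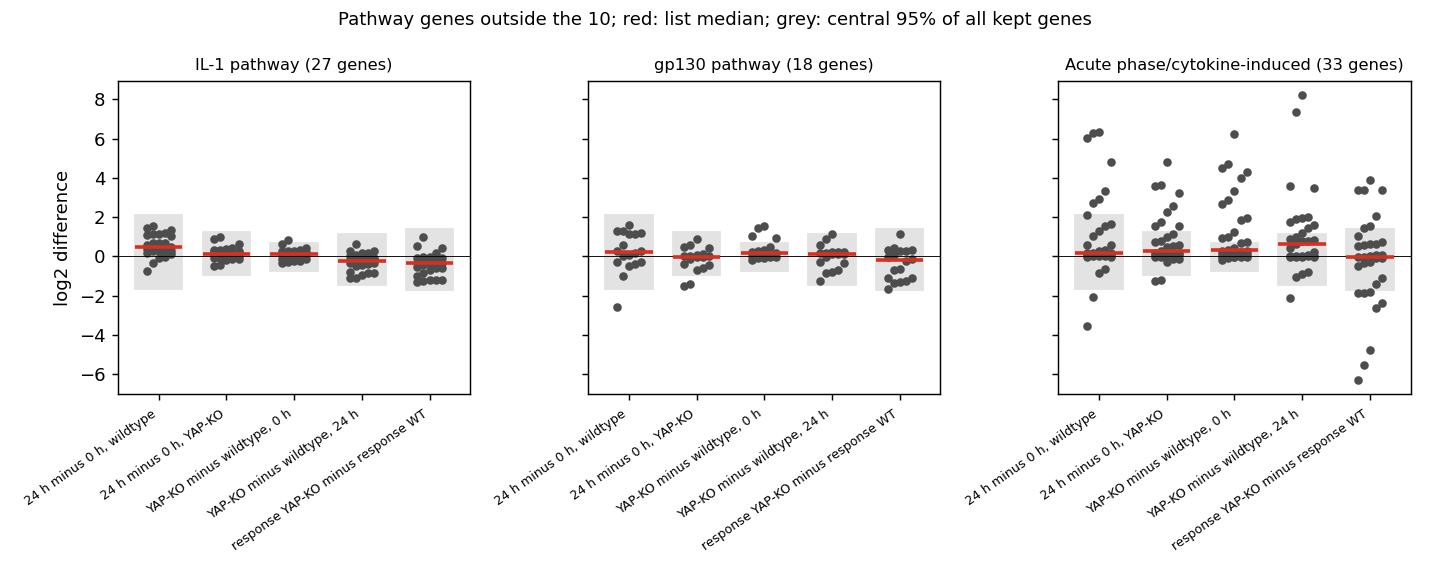
Log2 differences (vertical axis) of the kept genes of 3 lists outside the 10 genes, 1 point per gene, in 5 comparisons of arrays (horizontal axis); red bars are list medians and grey boxes the central 95% of all kept genes; saturated readings are plotted as read, so the points of such genes (Mt2 among them) have no exact size. The IL-1 and gp130 lists lay mostly inside the grey boxes, while the acute phase list reached 8.20 (Saa2, YAP-KO minus wildtype at 24 h).

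The genes whose 4 readings followed those of a member most closely were sought among 12217 kept genes, by the distance between profiles after each gene's mean was taken off. The nearest to Il1r1 were Tacc2, at a distance of 1.04, Gtf2b (1.17) and Dhrs9 (1.23). Profiles were not scaled, so the distance reflects the size of differences as well as their shape. As the differences of Il1r1 were large, its larger distances do not show that its shape was unlike that of other genes. Tacc2 read 7.10 (wildtype) against 9.95 (YAP-KO) at 0 h, then 7.48 against 7.37 at 24 h, so it too was highest in YAP-KO before the overdose. For Il1b the nearest were Rgs4 (0.18), Nt5c2 (0.22) and Dusp16 (0.22). Those of Il6ra were Ahr, which encodes the aryl hydrocarbon receptor (0.14), Garem1 (0.18) and Gramd1c (0.18). Osmr lay nearest to Ltv1 (0.12), the kinase gene Plk2 (0.20) and the AP-1 gene Jund (0.21). Plk2 read 7.80 (wildtype) against 8.94 (YAP-KO) at 0 h, then 9.94 against 9.02 at 24 h. The nearest to Socs3, whose profile was nearly flat, were Med17 (0.06), Ruvbl1 (0.08) and Rab35 (0.08). With 4 arrays such likeness is easily met, and it is a description of these profiles alone.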

How the data were processed

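The authors deposited 1 table of processed log2 signals for 65956 probe sets on 4 arrays; the log2 scale is inferred from the range (2.24 to 19.93), and background correction, summarisation and normalization are not given in the sources used here. Per the labels' protocols, Trizol extracts were labelled (biotin, GeneChip WT Plus). Of the probe sets 31402 were annotated to 1 gene, 1348 to several and 33206 to none; symbols were updated by Entrez identifier to RefSeq (GRCm38.p6). The brightest probe set of a gene was used, and genes whose mean reached the 40th percentile of named genes (4.322) were kept. Readings within 0.01 of an array's maximum were treated as saturated. Differences between single arrays were counted at 2-fold or more, with no test, since 1 array per group leaves no replicate; the number of arrays limits the precision. The computation was checked on simulated data. The 10 genes, the lists of IL-1, gp130 and acute phase genes and the markers of hepatocytes, neutrophils, monocytes and macrophages, Kupffer, endothelial, stellate, T, B and biliary cells were chosen with earlier results of these data known. The text names all 10 genes, up to 4 genes of a list with the largest differences in a comparison, and the 3 genes nearest in profile to Il1b, Il1r1, Il6ra, Osmr and Socs3. Genes named outside this rule (Myd88, Il1a, Il6, Osm, Tacc2 and Plk2 readings, single markers, and lower members of a list) were chosen after their values were seen. Python 3.11.15 with pandas 2.3.3 and numpy 2.4.6 was used. Alternatives were centring, quantile normalization, the mean of probe sets, other filters and limits, and the 0 h array of the other genotype as baseline.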

Additional observations from a re-analysis of the deposited data

Results flagged for a closer look

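The differences listed here had opposite signs in the compared pairs of arrays; with 1 array per group the difference between them was not tested. Il1r1 was 1.60 higher at 24 h than at 0 h in wildtype and lower in YAP-KO (-2.05), and the genotype difference was 3.64 at 0 h and -0.01 at 24 h. Il1r2 was 2.52 higher at 24 h in wildtype and -0.21 in YAP-KO, and YAP-KO minus wildtype was 0.32 at 0 h and -2.41 at 24 h. Osmr stood at 1.16 (YAP-KO minus wildtype) at 0 h and -1.03 at 24 h. Il1rap was at -0.39 and 0.54, and Socs3 at 0.52 and -0.17, in the same order. The values of Il1rap and Socs3, those of Il1r2 at 0 h and in YAP-KO, and that of Il1r1 at 24 h were all under 1.5-fold.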

How the results depend on the processing

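No paired analysis was possible because the groups share only 1 replicate number and each holds 1 array. All 50 member differences moved by less than 1.5-fold under centring and quantile normalization (the mean of probe sets could not change them, as each gene had 1 probe set); 4 of them, none above 0.20 in size, turned or reached 0 under centring or quantile normalization (Osmr, Stat3 and Socs3 between the times in YAP-KO, and Il1r1 between the genotypes at 24 h). Centring lowered the wildtype count of 8 genes between the times to 5 (18.5% and 17.6% of all kept genes). At a 4-fold limit the counts between the times were 2 in wildtype (from 8) and 1 in YAP-KO (from 4), against 4.76% and 0.811% of all kept genes. Between the genotypes they were 1 at 0 h (from 4) and 1 at 24 h (from 3), against 0.238% and 1.92%. The difference of responses counted 3 at 4-fold (2.45%) and 8 at 1.5-fold (30.2%), from 4. With the 0 h array of the other genotype as baseline, 3 of 20 differences reversed: Il1r1 in wildtype became -2.04 and in YAP-KO 1.59, and Stat3 in wildtype became -0.17. A further 7 moved by 1.5-fold or more and 10 did not. These reversals follow from the 0 h arrays themselves, which differed by 3.64 for Il1r1 and 1.24 for Stat3. In all genes called between the genotypes at 24 h, the split of 598 higher and 1060 lower became 755 and 838 under centring, and that of the responses went from 1047 and 1386 to 1335 and 1138. Il1r2 at 0 h and Socs3 were too dim for their small differences to be read.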

Other observations

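Some regulators of cytokine signalling within the acute phase list, picked after their values were seen, were highest in wildtype at 24 h, as Osmr was. Cebpd, the gene of a transcription factor that acts on acute phase genes, read 5.20 (wildtype) against 6.20 (YAP-KO) at 0 h, then 6.87 against 6.07 at 24 h. Pim1, a kinase gene induced by STAT3, read 6.51 against 7.46 at 0 h, then 8.07 against 7.17. In YAP-KO both read slightly lower at 24 h than at 0 h (-0.13 for Cebpd and -0.29 for Pim1), where Osmr (0.20) had no settled direction. Both were higher in YAP-KO before the overdose and lower in YAP-KO after it (-0.80 for Cebpd and -0.90 for Pim1). Il4ra, also highest in wildtype at 24 h but higher at 24 h in YAP-KO too, differed mainly after it: 8.26 against 8.52 at 0 h, then 11.18 against 9.07.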
